A study of Mus musculus with 9 samples.

Results

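The 10 genes of T cell co-stimulation and of the MHC class II machinery are described here across RAW264.7 cells, a mouse macrophage-like line. They were taken as the rows of the deposited gene table whose gene name was Cd80, Cd86, Icosl, Cd274, Pdcd1lg2, Cd40, Cd83, Cd74, H2-DMa or Ciita, which gave 10 genes of 26146. The rule uses gene names only, but the genes were chosen with earlier results of these data known. The study sequenced poly(A) RNA of 9 libraries, 3 in each of 3 groups, to ask how a Traditional Chinese Medicine extract changes the response to lipopolysaccharide (LPS), a bacterial cell wall component that activates macrophages through Toll-like receptor 4. The labels conflict on which treated group received the extract. For samples titled LPS+Extract the labels give the table column as M and the library name as ET, and for samples titled LPS the column as ET and the library name as M. The groups are therefore named after their columns. If the columns are right, M had LPS with the extract and ET had LPS alone, and if the library names are right it was the other way round; Normal cells had neither. Exchanging the readings exchanges which of M and ET had the extract, and the mean of M and ET against Normal is the same under both. The labels name no plant, dose, exposure time or separate cultures, so p-values measure only the spread between these libraries, which may be technical. RAW264.7 is 1 transformed line of BALB/c origin, and all 9 libraries come from it.

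A T cell needs a signal from its antigen receptor and a second from co-stimulatory ligands on the presenting cell. Cd80 and Cd86 encode the ligands of CD28 and CTLA-4, Icosl the ligand of ICOS, and Cd274 and Pdcd1lg2 the PD-1 ligands PD-L1 and PD-L2, which restrain T cells. Cd40 encodes a receptor through which helper T cells activate presenting cells, and Cd83 a surface protein of activated dendritic cells that stabilises MHC class II and CD86. Class II molecules are assembled on the invariant chain Cd74, exchange its fragment for antigenic peptide with the help of H2-DM, and are transcribed under the control of the coactivator Ciita.

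Library totals ran from 55039858 to 76242718 counts. Of the macrophage markers, 8 of 10 were at a mean FPKM of at least 1 in M and in ET and 9 of 10 in Normal, with summed levels of 2415 to 2467 FPKM in M, 2493 to 2673 in ET and 2024 to 2144 in Normal, although Mertk was at or near 0 in all 3 groups. Dendritic cell markers summed to 21.6 to 25.3 FPKM in M, 7.61 to 8.63 in ET and 6.03 to 6.18 in Normal. Ccr7, a chemokine receptor of mature dendritic cells, made up most of that sum in M and ET and had no counts in Normal. Of the 12 dendritic markers 4 were tested: Ccr7 and Itgax rose in the mean of M and ET against Normal, and Siglech (at most 0.0186 FPKM in M, none in ET, 3.18 ± 0.260 in Normal, SD, n = 3) and Kmo (0.111 ± 0.0420 in M, 0.143 ± 0.0672 in ET, 2.53 ± 0.219 in Normal) fell. The test took genes with an FPKM of 1 or more in at least 3 libraries. Ccr7 and Itgax passed only through M and ET, and Siglech and Kmo only through Normal, so all 4 directions were built into their entry. B cell markers stayed at or under 1.27 FPKM in M, 2.05 in ET and 0.631 in Normal in total, and 4 of 8 had no counts in ET and 4 of 8 none in Normal. T cell markers, nearly all Lck, reached 2.74, 2.77 and 0.989 FPKM in M, ET and Normal, and fibroblast markers, mostly Lum in M and ET, 6.13, 3.57 and 0.0731 FPKM. The sample titles name only RAW264.7 cells, and these markers are given as levels of genes, not as counts of cells. The part of any other cell type in the results below was not tested, and in bulk RNA fewer cells of a type and less RNA per cell cannot be told apart.

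Against Normal, Cd86, Cd40, Cd80 and Cd274 rose strongly in the treated libraries, Cd83 and Cd74 rose less, and Icosl and H2-DMa fell slightly. Levels are FPKM (fragments per kilobase, scaled to library size), which allow genes to be compared per length. Coordinates are those of the table, whose build is not stated; for 90.1% of its genes they equal GENCODE M21 on GRCm38. Log2 changes, adjusted p-values and calls come from edgeR's quasi-likelihood test on the counts with Benjamini-Hochberg adjustment over 11536 tested genes, and a gene was called at an adjusted p under 0.05. A gene entered the test when 3 or more of the 9 libraries had an FPKM of 1 or more; 8 of the 10 genes did, and Ciita and Pdcd1lg2 did not. In the mean of M and ET against Normal 6 of the 8 rose and 2 fell, where 36.8% of all tested genes rose and 36.8% fell. Against Normal on its own, M had 6 higher and 1 lower of 8 (35.5% and 34.5% of all tested genes), and ET had 6 higher and 2 lower (35% and 35.2%). The 2 comparisons share the Normal libraries. The median log2 change of the 8 genes was 3.01 in the mean of M and ET, against a median of -0.01 over all tested genes. Cd86, Cd40 and Cd274 stayed under an FPKM of 1 in every Normal library and entered the test only through M and ET. Cd80 also needed M and ET to enter, with only Normal replicate 2 over 1, at 1.10 FPKM. A rise against Normal was thus built into the entry of Cd86, Cd40 and Cd274 and favoured for Cd80. The counts of 6 and the median include these genes. Since the 10 genes were chosen with earlier results of these data known, the counts and the median describe the set and do not test it.

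**Figure D1:**
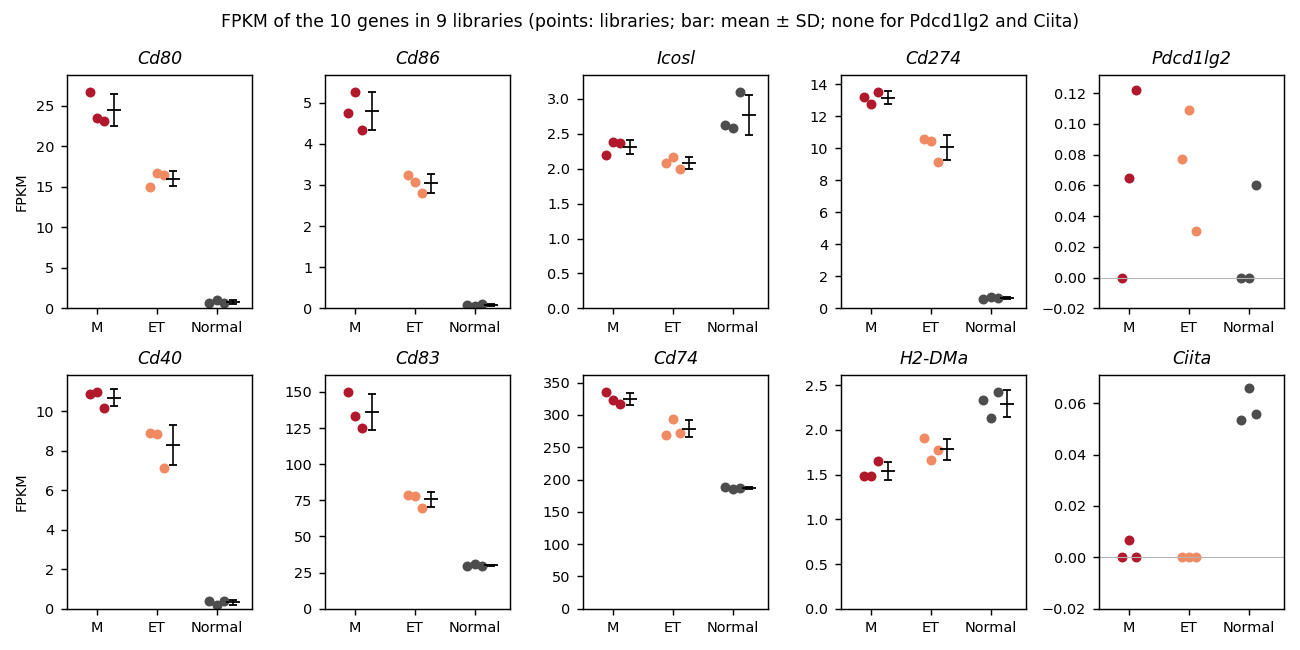
FPKM of each of the 10 genes (y axis) in M, ET and Normal (x axis); points are libraries and the bar beside them is the mean with its SD (n = 3), left out for Pdcd1lg2 and Ciita. Cd80, Cd86, Cd274, Cd40, Cd83 and Cd74 lay higher in every M library than in every ET library and higher in both than in every Normal library. Separation of the groups was looked at for the 10 genes only, so no share of all genes can be set beside it, here or in the text.

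Cd80 (B7-1, chromosome 16, 38455561 to 38496335) and Cd86 (B7-2, chromosome 16, 36603869 to 36666081, minus strand), the 2 ligands of CD28, rose the most of the members with Cd40. Cd80 had 26.7, 23.5 and 23.1 FPKM in M replicates 1 to 3, 14.9, 16.7 and 16.4 in ET, and 0.698, 1.10 and 0.627 in Normal. M, ET and Normal libraries did not overlap, and Normal replicate 2 was the highest Normal library, at 336 counts against 172 and 142. The mean of M and ET was 4.66 ± 0.15 (log2, SE) above Normal (adjusted p = 1.45e-11). Cd86 had 4.76, 5.26 and 4.34 FPKM in M, 3.25, 3.06 and 2.80 in ET, and 0.0940, 0.0620 and 0.116 in Normal. The 3 groups did not overlap for Cd86 either, and the log2 change against Normal was 5.48 ± 0.18 (adjusted p = 1.80e-11).

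The RefSeq window of Cd80, from 250 bases before the annotated start to 50 after it (chr16:38458683-38458982, GRCm38.p6, plus strand), is given because it holds 1 copy of the letters TGANTCA. These letters are a loosened AP-1 pattern that allows any middle base. The copy lies at positions -42 to -36 from the start, in capitals, and its middle base is T. That start lies inside the gene as the table bounds it.

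Cd80: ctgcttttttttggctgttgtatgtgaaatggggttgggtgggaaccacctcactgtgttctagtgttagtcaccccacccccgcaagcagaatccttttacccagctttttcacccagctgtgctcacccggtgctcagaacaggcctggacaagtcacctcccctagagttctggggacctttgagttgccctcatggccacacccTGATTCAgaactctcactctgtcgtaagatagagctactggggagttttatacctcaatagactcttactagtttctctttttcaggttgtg

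Windows of 32851 mouse starts were searched on both strands, and 7.81% held TGANTCA. The other motifs searched were the NF-kB motif (GGG, any 2 bases, TTTCC, in 1.63% of windows), TTCNNNGAA (GAS, 8.3%), the ISRE motif (GAAA, any 2 bases, GAAA, 3.44%) and CCAAT (37.4%). Of the 10 genes, 5 had a window in the table. H2-DMa, which fell, had 2 windows, and 1 of them also held TGANTCA, at -86 to -80, with CCAAT at -198 to -194. A match is only a run of letters.

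Icosl (chromosome 10, 78069302 to 78079525), the ICOS ligand, moved the other way and by far less. Its level was 2.19, 2.37 and 2.36 FPKM in M, 2.08, 2.16 and 2.00 in ET, and 2.62, 2.58 and 3.10 in Normal. All 6 treated libraries lay below the 3 Normal libraries, and M lay above ET. The mean of M and ET was 0.25 ± 0.09 lower on the log2 scale in edgeR's quasi-likelihood test (adjusted p = 0.0181). M alone was not called (log2 -0.17, 95% interval -0.37 to 0.02, adjusted p = 0.145), while ET alone was (-0.33, adjusted p = 0.00996); M against ET is the test of that difference. Without Normal replicate 3, the highest Normal library, neither call stood, and the log2 change was -0.16 for the mean (adjusted p = 0.149) and -0.24 for ET (adjusted p = 0.0641).

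The Icosl window (chr10:78069118-78069417, GRCm38.p6, plus strand) is printed because Icosl is the ligand gene that fell, with its 2 CCAAT matches in capitals, at -39 to -35 on the plus strand and -145 to -141 on the minus strand.

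Icosl: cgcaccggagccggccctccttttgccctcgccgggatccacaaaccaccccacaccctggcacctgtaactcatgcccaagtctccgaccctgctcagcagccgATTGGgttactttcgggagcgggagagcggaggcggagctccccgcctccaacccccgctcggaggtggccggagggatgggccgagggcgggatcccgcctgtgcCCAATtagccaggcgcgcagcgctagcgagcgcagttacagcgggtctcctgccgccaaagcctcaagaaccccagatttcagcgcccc

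Cd274 and Pdcd1lg2, the genes of PD-L1 and PD-L2, are neighbours on chromosome 19. Cd274 lies at 29367455 to 29388095 and Pdcd1lg2 at 29410919 to 29471161, both on the plus strand with 22823 bases between them. Cd274 had 13.2, 12.7 and 13.5 FPKM in M, 10.6, 10.5 and 9.18 in ET, and 0.613, 0.717 and 0.684 in Normal, with no overlap among the 3 groups. Against Normal the mean of M and ET rose by 4.18 ± 0.08 (log2, SE, adjusted p = 1.52e-13). Pdcd1lg2 stayed at or under 16 counts in every library, with 0, 8 and 16 counts in M, 11, 13 and 4 in ET, and 0, 0 and 8 in Normal. The groups overlapped and no fold is given, since several libraries were at 0 and the others held only 4 to 16 counts. Without the filter on low values, edgeR's quasi-likelihood test did not call Pdcd1lg2 in the mean of M and ET against Normal (adjusted p = 0.415). An antisense gene that overlaps Cd274 had 143 to 164 counts in M, 98 to 108 in ET and 2 to 29 in Normal, and without the strand setting of the counting its reads cannot be told apart from those of Cd274.

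The windows of both genes are printed because neighbours with a common direction of transcription had such different levels. The Cd274 window is chr19:29367188-29367487 and the Pdcd1lg2 window chr19:29410669-29410968, both GRCm38.p6, plus strand. None of the 5 motifs matched in either window.

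Cd274: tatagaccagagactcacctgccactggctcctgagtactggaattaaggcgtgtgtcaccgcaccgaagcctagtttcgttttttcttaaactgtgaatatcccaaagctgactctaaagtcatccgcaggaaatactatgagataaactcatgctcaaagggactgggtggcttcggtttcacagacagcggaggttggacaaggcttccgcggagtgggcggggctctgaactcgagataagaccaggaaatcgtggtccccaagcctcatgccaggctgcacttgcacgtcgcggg

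Pdcd1lg2: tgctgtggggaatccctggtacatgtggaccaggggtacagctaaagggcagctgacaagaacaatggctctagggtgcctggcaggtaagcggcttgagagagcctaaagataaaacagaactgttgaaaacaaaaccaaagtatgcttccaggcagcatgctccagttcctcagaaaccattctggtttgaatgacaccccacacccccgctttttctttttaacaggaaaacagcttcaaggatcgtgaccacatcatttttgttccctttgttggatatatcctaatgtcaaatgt

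Summed over Cd80, Cd86, Icosl, Cd274 and Pdcd1lg2, the 5 ligands reached 44.8 ± 1.85 FPKM in M, 31.3 ± 1.11 in ET and 4.36 ± 0.292 in Normal (SD, n = 3 each). Icosl made up 5.17% of that sum in M, 6.65% in ET and 63.5% in Normal. The PD-1 ligands made up 28.2, 29.1 and 31.4% in M, 34.4, 32.5 and 30.3% in ET, and 15.2, 16.1 and 16.2% in Normal. All 6 treated libraries lay above all 3 Normal libraries. The mean was 31.0 ± 2.28% (SD, n = 6) in M and ET and 15.9 ± 0.548% (SD, n = 3) in Normal, with p = 0.0238 in a two-sided exact permutation test, the smallest p that 6 against 3 can give. Adjusted over the 6 share comparisons made, the exact test gave p = 0.143. The Cd80 share of Cd80 and Cd86 together was 83.8 ± 1.52% in M and ET and 89.1 ± 5.19% in Normal (exact permutation test, adjusted p = 0.286), and the difference of -5.28 points shrank to -2.48 without Normal replicate 2. The Cd274 share of the PD-1 ligands was 99.4 ± 0.381% in M and ET and 97.3 ± 4.68% in Normal (exact permutation test, adjusted p = 0.667).

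**Figure D2:**
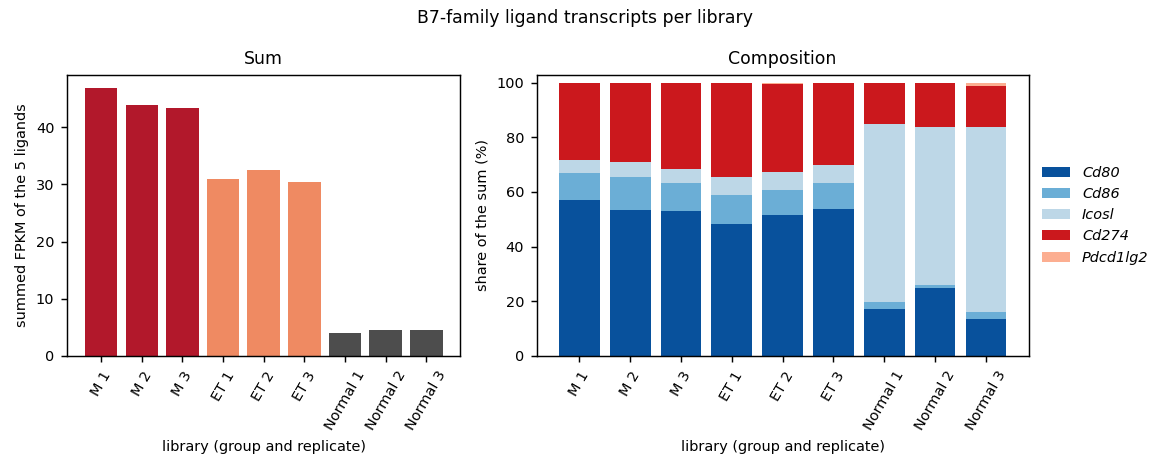
Left, summed FPKM of Cd80, Cd86, Icosl, Cd274 and Pdcd1lg2 per library; right, each gene's share of that sum (%) in the same libraries of M, ET and Normal. Icosl is the largest share in Normal, and Cd80 and Cd274 are the 2 largest in M and ET.

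Cd40 (chromosome 2, 165055627 to 165072948), the receptor for CD40 ligand, had 10.9, 10.97 and 10.2 FPKM in M, 8.88, 8.87 and 7.15 in ET, and 0.401, 0.190 and 0.383 in Normal. The groups did not overlap, and Normal replicate 2 was the lowest library. The mean of M and ET was 4.94 ± 0.18 above Normal (log2, SE, adjusted p = 7.19e-11). Cd83 (chromosome 13, 43784775 to 43803132) stood much higher in every group, at 150, 133 and 125 FPKM in M, 78.8, 78.3 and 69.8 in ET, and 29.6, 30.7 and 29.6 in Normal. Its change against Normal was smaller, 1.84 ± 0.06 (adjusted p = 2.45e-11).

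Of 13 genes of CD40 signalling, all tested, 8 rose and 2 fell in the mean of M and ET against Normal, with a median log2 change of 0.21. Here and in the lists below, genes named as rising or falling were called. Of those named below, Socs1, Nectin2, Tnfsf13b and Myc were under an FPKM of 1 in every Normal library. They entered the test only through M and ET, so a rise was built into their entry. Traf1, an adaptor of TNF receptor signalling, rose by 3.75, Tnfaip3, the NF-kB inhibitor A20, by 1.69 and Nfkb2, the precursor of p52, by 1.02. Birc2 and Traf3, both of which restrain non-canonical NF-kB, fell by 0.20 and 0.16. With total counts only as scaling, 6 rose and 3 fell.

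The class II genes moved apart from one another. Cd74 (chromosome 18, 60803848 to 60812646), the invariant chain, was the most abundant of the 10 in every group, at 335, 322 and 317 FPKM in M, 269, 294 and 273 in ET, and 188, 185 and 188 in Normal. The groups did not overlap, and the mean of M and ET was 0.77 ± 0.03 above Normal (log2, SE, adjusted p = 4.36e-10). H2-DMa (chromosome 17, 34119541 to 34139101), a chain of the peptide exchange factor, had 1.48, 1.49 and 1.65 FPKM in M, 1.91, 1.67 and 1.77 in ET, and 2.33, 2.13 and 2.42 in Normal. All treated libraries lay below all Normal libraries, and the mean was 0.38 ± 0.10 lower on the log2 scale (adjusted p = 0.00405). M alone was called (-0.48, adjusted p = 0.00275); ET alone was called narrowly (-0.28, adjusted p = 0.0477) and lost the call in 26 of 30 alternatives. Brd2, on the opposite strand, overlaps H2-DMa over 3094 bases and had 20179 to 21906 counts in M, 22214 to 24570 in ET and 20448 to 27348 in Normal, so its part in the H2-DMa counts was not tested.

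Ciita (chromosome 16, 10480059 to 10526426), the class II coactivator, had 0, 4 and 0 counts in M, no count in ET, and 34, 52 and 33 counts in Normal. Every Normal library lay above every treated library, although the Normal level itself was only 0.0584 ± 0.00646 FPKM (SD, n = 3). Ciita in ET was at least 11.3-fold lower than in Normal, with the floor of 3 counts per library. For M, which had counts, the ratio of summed counts was used with no floor. It was 25.5-fold lower, on 4 against 119 counts, with an exact 95% interval of 9.69 to 95.0 that covers counting error only. The bound and the ratio are made differently and set no order between M and ET. Without the filter on low values edgeR's quasi-likelihood test called Ciita lower in both, with adjusted p = 0.00863 in M and 0.00169 in ET. Dexi, on the opposite strand, overlaps Ciita and had 409 to 536 counts in M, 412 to 576 in ET and 474 to 552 in Normal.

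The class II chains themselves were almost absent. H2-Aa, H2-Ab1, H2-Ea and H2-Eb1 did not exceed 0.171 FPKM in M, 0.0903 in ET and 0.257 in Normal, and summed to 52, 19 and 182 counts in M, ET and Normal. Of 8 class II molecule genes beside H2-DMa, all 8 were under an FPKM of 1 in every M library, 8 in every ET library and 7 in every Normal library. H2-Oa alone entered the test, and only through the Normal libraries, so a fall was built into its entry. It had 0.714, 0.451 and 0.302 FPKM in M, 0.569, 0.329 and 0.247 in ET, and 1.27, 1.59 and 1.10 in Normal. As background, H2 genes are polymorphic and have near copies, and the reference genome is of C57BL/6, so their levels are uncertain.

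**Figure D3:**
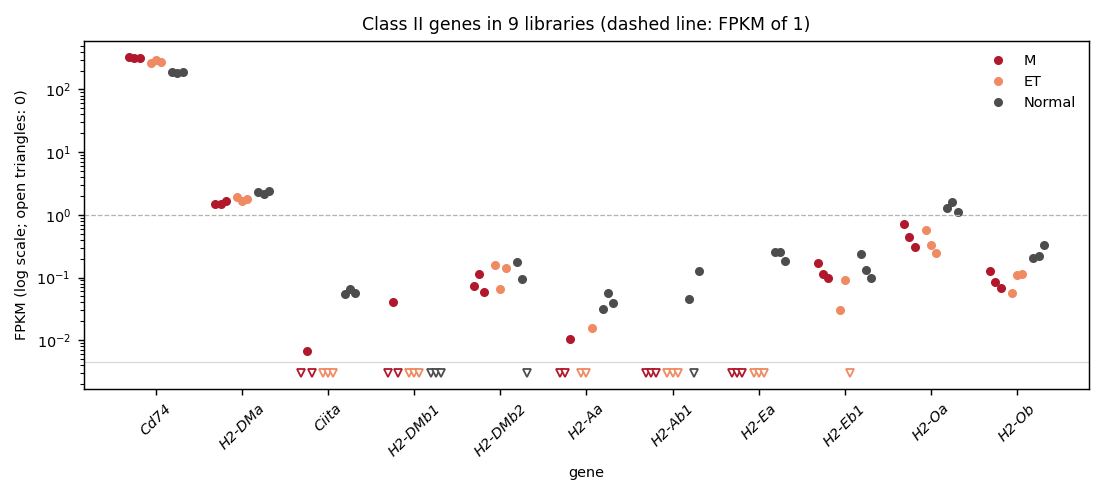
FPKM of Cd74, H2-DMa, Ciita and 8 other class II genes (x axis; log y axis) in M, ET and Normal, 1 point per library; open triangles are values of 0 and the dashed line an FPKM of 1. Cd74 stands at 185 to 335 FPKM, while H2-Aa, H2-Ab1, H2-Ea and H2-Eb1 stay at or under 0.257 FPKM.

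Of 10 tested proteases and helpers of antigen processing, 6 rose and 3 fell in the mean of M and ET against Normal, with a median log2 change of 0.50. The cathepsin genes Ctsl, Ctsd and Ctsb rose by 2.02, 1.62 and 1.26, while Cst3, the cathepsin inhibitor cystatin C, fell by 1.89, Ifi30, a lysosomal thiol reductase, by 0.74 and Lgmn, a lysosomal endopeptidase, by 0.27. Of 19 tested genes that transcribe, induce or restrain class II, 6 rose and 11 fell, with a median of -0.38. Socs1, an inhibitor of JAK signalling, rose by 3.38 and Jak2, a kinase of cytokine receptors, by 1.28, while Ifngr1, a chain of the interferon gamma receptor, fell by 1.002, Irf1 by 0.95 and Rfx5, a subunit of the factor that binds class II promoters, by 0.86.

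Of the other B7 and T cell ligand genes, 5 were tested, and 4 rose and 1 fell, with a median of 1.28. Lgals9, galectin 9, rose by 4.13, Pvr by 2.07 and Nectin2 by 1.28, both ligands of DNAM-1 and TIGIT, while Vsir, the checkpoint VISTA, fell by 0.53. Of the TNF family ligands 2 were tested. Tnfsf13b, the B cell survival factor BAFF, rose by 3.23 and Tnfsf9, the 4-1BB ligand, fell by 0.88. Among 9 tested genes tied to PD-L1 control, 6 rose and 2 fell (median 0.19), led by Myc at 5.66, Stat3 at 1.39 and Hif1a at 0.77, with Stub1, a ubiquitin ligase, falling by 0.63 and Cmtm6, which stabilises PD-L1, by 0.12. The receptor Pdcd1, PD-1 itself, rose by 0.60, the only tested gene of the T cell receptors for these ligands. Icos and Cd28 did not enter the test and were lower in M and ET. Their means were 0.140 and 0.101 FPKM in M, 0.182 and 0.137 in ET, and 0.492 and 0.313 in Normal.

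**Figure D4:**
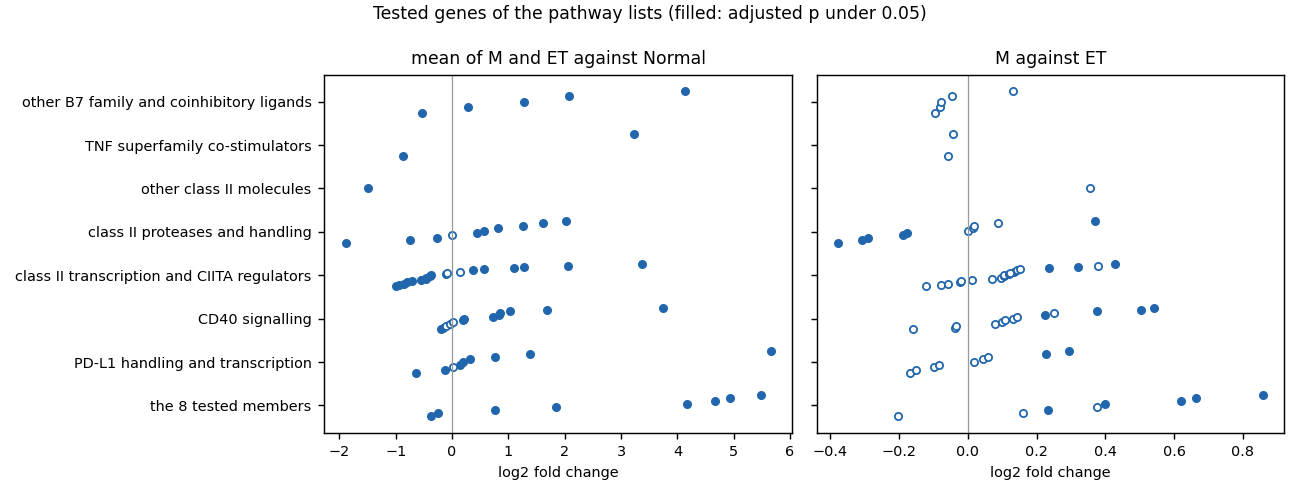
Log2 change (x axis) of the tested genes of each pathway list, mean of M and ET against Normal and M against ET, 1 point per gene, with the 8 tested genes of the report at the bottom; filled points had an adjusted p under 0.05. The medians in the mean of M and ET against Normal run from -0.38 for the class II transcription genes to 1.28 for the other B7 genes among lists of at least 5 tested genes.

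Between M and ET, 5 of the 8 tested genes were higher in M and none was lower, where 4.97% of all tested genes were higher and 4.12% lower. As against Normal, this count describes a chosen set and is no test of it. Cd83 differed most, by 0.86 ± 0.06 (log2, SE, edgeR's quasi-likelihood test, adjusted p = 6.28e-06). Cd86 was 0.66 ± 0.13 higher (adjusted p = 0.00983), Cd80 0.62 ± 0.12 (adjusted p = 0.00838), Cd274 0.40 ± 0.07 (adjusted p = 0.00442) and Cd74 0.23 ± 0.04 (adjusted p = 0.00277). The Cd80 call depended on how the variance was estimated. With robust shrinkage its adjusted p was 0.0317, and it lost the call when any 1 of the 6 M and ET libraries was left out, up to an adjusted p of 0.127.

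The other 3 were not called. Cd40 was higher in M in every library (log2 0.37, 95% interval 0.09 to 0.66, adjusted p = 0.131), and 4 of 31 alternatives called it. Icosl differed by 0.16 (interval -0.04 to 0.36, adjusted p = 0.347) and H2-DMa by -0.20 (interval -0.43 to 0.03, adjusted p = 0.320). The PD-1 ligand share of the 5 ligands was 29.6 ± 1.65% in M and 32.4 ± 2.08% in ET (SD, n = 3 each), and the difference did not pass the exact permutation test (two-sided p = 0.2, where 3 against 3 cannot go below 0.1). Ccr7 was 21.4 ± 1.86 FPKM in M and 5.55 ± 0.894 in ET (SD, n = 3 each), higher in M like Cd83, Cd86 and Cd80. The other 3 tested dendritic markers were not called between M and ET, with Itgax at -0.54, Kmo at -0.35 and Siglech at 3.62 (log2). The Siglech value rests on M replicate 3 alone, at 0.0186 FPKM, with 0 in the other M and ET libraries. The sample titles name no dendritic cells, and a part of any such cells in the differences was not tested.

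**Figure D5:**
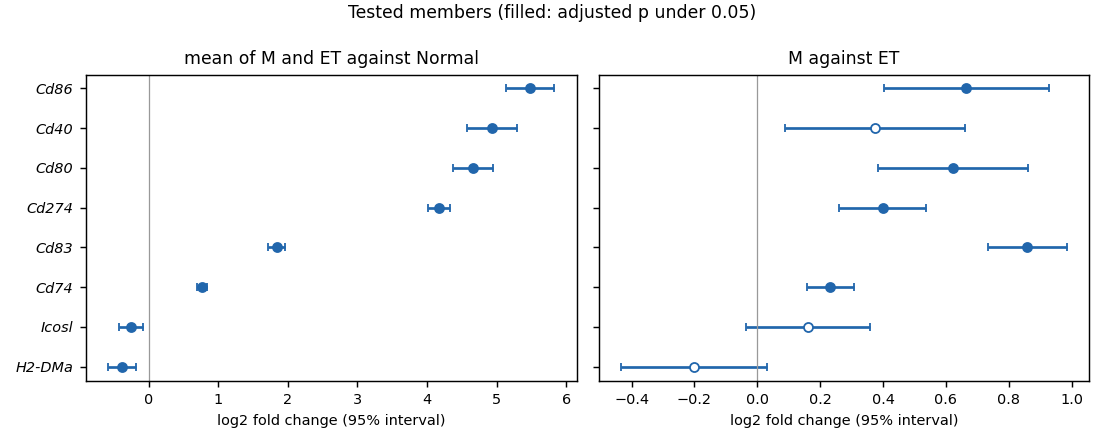
Log2 change of the 8 tested genes (y axis) in the mean of M and ET against Normal (left) and M against ET (right), with 95% intervals from the edgeR fit; filled points were called. The left panel runs from -0.38 for H2-DMa to 5.48 for Cd86, and the right from -0.20 to 0.86.

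Of the pathway lists, M differed from ET in 4 of 13 CD40 signalling genes, all higher, with Traf1 at 0.54 and Nfkb2 at 0.50; in 4 of 19 class II transcription genes, all higher, among them Jak2 at 0.32; and in 6 of 10 processing genes, 1 higher and 5 lower, with Cst3 higher by 0.37 and Ctsb lower by 0.38. The CD40 signalling count was 3 with total counts only as scaling and 5 with DESeq2. The class II transcription count was 3 with total counts only and with relative log expression factors. Of 9 PD-L1 control genes 2 were higher, Hif1a at 0.29 and Stat3 at 0.23. None of the 5 other B7 genes and neither TNF ligand was called.

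Each tested gene of the 10 was also matched to the nearest profiles over the 9 libraries among 10199 tested genes, predicted gene names left out, by the root mean square difference of log2 CPM after centring on Normal. Nearest to Cd80 were Gpr35 (0.220) and Mx2 (0.230), to Cd86 Usp18 (0.232) and Cmpk2 (0.294), to Cd274 Oas3 (0.129) and Lgals9 (0.131), and to Cd40 Slc15a3 (0.224) and Spib (0.272). Cd83 lay nearest to Rab11fip1 (0.132) and Serpinb6b (0.177), Cd74 to Pkp4 (0.0294) and Lnpep (0.0563), Icosl to Ucp2 (0.0576) and Cwc27 (0.0583), and H2-DMa to Snhg20 (0.0488) and Gga2 (0.0543). These distances describe 9 libraries of 3 groups and carry no test.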

How the data were processed

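Each of the 3 groups had 3 poly(A) RNA libraries. Per the submitters' processing notes, cutadapt 1.9, HISAT2 2.2.1, StringTie 2.1.6, DESeq2 and edgeR were used. The authors deposited whole-number counts for each gene in each library; the counting tool, strand setting and genome build are not given in the sources used here. The FPKM values were made by the authors, per the file headers. Start and end equalled GENCODE M21 on GRCm38 for 23547 of 26146 genes (90.1%), though not for Icosl, Cd74 and Ciita. The library kit marks strand, but overlapping genes on opposite strands cannot be told apart without the counting setting.

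Tests were edgeR 4.0.16 (R 4.3.3) quasi-likelihood fits of all 9 libraries with TMM factors and no robust shrinkage of the dispersions. This variance setting was settled after results under robust shrinkage had been seen, and those are given in the closing section. SE is the absolute log2 change over the root of F, and intervals are 1.96 SE wide on each side. Alternatives were DESeq2 1.42.0, limma 3.58.1, other scalings, filters and variance settings, a replicate block and each library left out. For a group at 0 in every library, folds use 3 counts per library as the floor. Exact permutation tests over libraries were used for shares.

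The members and gene lists were chosen with earlier results of these data known. Named were all 10 members, per pathway list up to 3 called genes with the largest rise and 3 with the largest fall, up to 2 with the largest change between M and ET, and the nearest profiles of each member. Promoter windows are RefSeq on GRCm38.p6 and were held for 5 of the 10 genes. The sequence of Cd74 and 1 gene that the naming rule took are not reported here.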

Additional observations from a re-analysis of the deposited data

How the results depend on the processing

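Over 32 log2 changes of members and 972 alternative values, 925 kept their direction and side of the threshold, 40 lost the call, 7 gained it and 0 changed direction. With an FPKM filter of 5, only 5 members were tested and all 5 were called higher, both in the mean of M and ET against Normal and in ET against Normal. Among them, Cd80, Cd274 and Cd40 were at or under 1.10 FPKM in every Normal library. They passed this filter only through M and ET, so their rise was built into their entry. Leaving out each library gave 7 to 8 members called in the mean, 7 in M, 6 to 8 in ET and 5 to 6 in M against ET. Between M and ET libraries of the same replicate number, deviations from the group means correlated at 0.0756, 0.0373 and 0.0309. These values show no sign of pairing but cannot exclude it. With a replicate block 8, 7, 7 and 5 members were called in the mean, M, ET and M against ET. H2-DMa in ET lost its call there (edgeR's quasi-likelihood test, adjusted p = 0.0558).

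The variance setting was settled after the robust results were seen, and robust shrinkage called 640 genes higher and 513 lower in M against ET. Under it Cd80 in M against ET had an adjusted p of 0.0317, of 0.0603 with the replicate block and of 0.0802 without the filter, and H2-DMa in ET against Normal one of 0.0570. Limma on log2(FPKM + 0.1) gave Cd80 an adjusted p of 0.0621. Icosl in M against Normal was called with total counts only (0.0319) and with limma (0.0339 and 0.0364). Cd40 in M against ET was called by limma on log2(FPKM + 1) (0.0430), with only the 2 groups (0.0277) and without Normal replicate 2 (0.0269). The causes were not tested. The pseudocount of limma on log2(FPKM + 1) shrinks the changes of genes low in Normal: against Normal, Cd86 was 2.15, Cd40 2.98, Cd80 3.53 and Cd274 2.90 in the mean of M and ET, all still called.

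The PD-1 ligand share of the 5 ligands differed from Normal by 14.5 to 15.7 points with 1 library left out (15.1 with all). The Cd80 share of Cd80 and Cd86 differed from Normal by -7.61 to -2.48 points (-5.28 with all), at -2.48 without Normal replicate 2. It differed between M and ET by -0.42 points, and by -1.37 to 0.51 with 1 library left out (0.512 without M replicate 2 and 0.277 without ET replicate 3). The Cd274 share differed by 0.23, and by -0.00691 to 0.441 (-0.00691 without M replicate 1), and against Normal by 2.12, and by -0.581 to 3.47 (-0.581 without Normal replicate 3, the only Normal library with Pdcd1lg2 counts). Depth limits Pdcd1lg2, Ciita and the class II chains, which had few counts per library.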
